A study of Homo sapiens with 6 samples.

Results

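The UGT2B genes named here are UGT2B7, UGT2B10, UGT2B11, UGT2B15, UGT2B17 and UGT2B28, glucuronosyltransferases that were selected on their counts in these libraries, because members were seen to move in opposite directions between the groups. Of the 6, 5 had a row among the 22279 transcript IDs of the count table, matched by Ensembl transcript ID in GENCODE release 29, and UGT2B10 was not analysed here as expression. RNA was sequenced from LNCaP, an androgen-sensitive line from a human prostate cancer metastasis, in 3 libraries with a hairpin against RB (shRB) and 3 with a control hairpin (shCON). Both groups spent 72 h in a treatment labelled CDT, listed as arresting the cell cycle, and the series calls the condition hormone deficient. Each group carries 1 hairpin label, so RB loss and an effect of the hairpin or of the cell population selected with it cannot be told apart. The labels do not say whether replicates were separate cultures, so errors measure the spread between these libraries, which may be technical.

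UGT2B enzymes sit in the membrane of the endoplasmic reticulum and attach glucuronic acid, taken from UDP-glucuronic acid, to steroids, bile acids and drugs. The conjugates are more soluble, have lost their hormone activity and leave the cell through transporters. In the prostate UGT2B15 and UGT2B17 are known as the enzymes that clear dihydrotestosterone and its metabolites, and in LNCaP cells both genes are known to be repressed by androgen.

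The members resemble each other, most closely within the pairs UGT2B15 with UGT2B17 and UGT2B11 with UGT2B28, which bears on the counts below. The 5 sequences that follow are the first 60 coding bases of each member with a row (GENCODE release 29, chromosome 4). They show where, at this start, the pair that was lower in shRB and the member that was higher differ. Identity over the whole coding sequence is given after them. Capitals mark bases that differ from UGT2B17 at the same place.
UGT2B17: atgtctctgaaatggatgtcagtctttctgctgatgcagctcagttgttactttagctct
UGT2B15: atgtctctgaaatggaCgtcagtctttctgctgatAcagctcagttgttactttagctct
UGT2B11: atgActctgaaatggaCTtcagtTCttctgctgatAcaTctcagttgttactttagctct
UGT2B28: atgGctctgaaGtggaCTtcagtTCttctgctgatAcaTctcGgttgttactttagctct
UGT2B7: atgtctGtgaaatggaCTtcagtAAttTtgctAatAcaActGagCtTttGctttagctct

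Over these 60 bases UGT2B15 differed from UGT2B17 at 2, UGT2B11 at 7, UGT2B28 at 9 and UGT2B7 at 13. Over the whole coding sequence of 1590 bases, UGT2B15 and UGT2B17 differed at 55 positions, an identity of 96.5%, and their longest identical run was 199 bases. UGT2B11 and UGT2B28 formed the other close pair, with 97% identity over 1587 aligned coding bases. Across the pairs, UGT2B11 had 84.9% identity with UGT2B17 and 84.7% with UGT2B15. UGT2B7 had 91.8% identity with UGT2B11 and 85.4% with UGT2B17.

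How far a read could be placed was measured as the share of windows of a transcript found in no transcript of another gene on either strand. In windows of 50 bases it was 72.2% for UGT2B17 and 72.2% for UGT2B15, 52.7% for UGT2B11, 64.3% for UGT2B28 and 93.3% for UGT2B7. In windows of 100 bases it was 87.3% for both UGT2B17 and UGT2B15, 82.6% for UGT2B11, 94.3% for UGT2B28 and 100% for UGT2B7. UGT2B17 and UGT2B15 shared 27.5% of their 50-base windows with each other, and 0.148% of the windows of UGT2B17 occurred in UGT2B11. UGT2B11 shared 18.1% of its 50-base windows with UGT2B28, 22.4% with the pseudogene UGT2B25P and 13.7% with the pseudogene UGT2B24P. The exons of UGT2B11 also overlap those of the opposite-strand gene AC111000.4 over 418 of 2088 bases, and the library kit named in the labels does not mark strand, so reads of the overlap cannot be assigned to either gene. Read length is not given in the sources used here. All UGT2B counts therefore carry an uncertainty from shared reads, largest by this measure for UGT2B11.

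**Figure D1:**
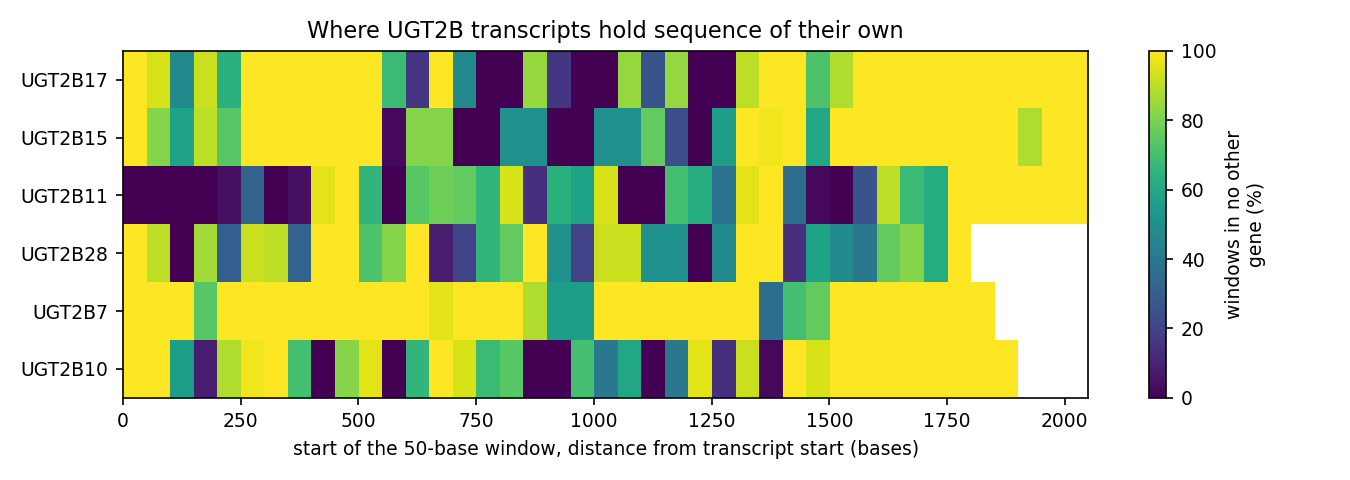
Share of 50-base windows found in no transcript of another gene, in bins along each UGT2B transcript from its start (x axis, bases), with colour from 0% to 100% and white beyond the last window. UGT2B17 and UGT2B15 lose their own sequence mainly in the middle of the transcript, and UGT2B11 at its beginning.

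The labels held for the targeted gene. RB1, the retinoblastoma tumour suppressor, had 5.83, 3.82 and 5.41 CPM (the read count scaled to a common library total after TMM adjustment) in shRB 1 to 3, against 56.6, 52.7 and 54.7 CPM in shCON 1 to 3. Total counts ranged from 9780579 to 10898768 in shRB and from 6115310 to 20091488 in shCON. All 12 luminal prostate markers with a row passed the filter on low counts, with summed levels of 5970 to 6220 CPM in shRB and 6450 to 6730 CPM in shCON. Among markers of other cells, KRT5 (basal), COL1A2 (stroma) and PTPRC and CD3E (leukocytes) were at 0 in every library. Other markers of these lists were not. The leukocyte marker CD68 was at a mean of 5.08 CPM in shRB and 5.92 CPM in shCON. The basal marker KRT14 was at 0.0354 CPM in shRB and 0.477 CPM in shCON. Stromal markers summed to 19.8 to 23.8 CPM in shRB and 39.9 to 46.9 CPM in shCON, mostly VIM and COL1A1, and their part in the results was not tested. Hepatocyte markers, included because the liver makes UGT2B enzymes, summed to 12.2 to 15.8 CPM in shRB and 13.1 to 14.9 CPM in shCON. Of the 4 tested, ALB and CYP2E1 were called higher in shRB (log2 fold changes of 1.32 and 0.62) and TTR and APOA1 lower (−1.62 and −1.46). The part of these markers was not tested either.

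UGT2B17, which glucuronidates testosterone and dihydrotestosterone, was the most abundant member in both groups. It had 171, 146 and 163 CPM in shRB 1 to 3, against 372, 327 and 345 CPM in shCON 1 to 3. All 3 shRB libraries lay below all 3 shCON libraries, and the groups did not overlap. The mean was 160 ± 12.8 CPM in shRB and 348 ± 22.9 CPM in shCON (SD, n = 3 each), and the shRB mean was 46% of the shCON mean. The log2 fold change of UGT2B17 was −1.12 ± 0.08 (SE, edgeR), and 2.01% of all tested transcripts had a lower one. In bulk RNA, fewer cells expressing a gene and less RNA per cell cannot be told apart.

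UGT2B15, the near copy of UGT2B17 with a preference for dihydrotestosterone and its reduced metabolites, was lower in the same direction by a smaller factor. Its levels were 158, 124 and 147 CPM in shRB 1 to 3, against 204, 183 and 198 CPM in shCON 1 to 3. The groups did not overlap, with the highest shRB library at 158 CPM and the lowest shCON library at 183 CPM. The mean was 143 ± 17.2 CPM in shRB and 195 ± 10.8 CPM in shCON (SD, n = 3 each), and the shRB mean was 73.3% of the shCON mean. The log2 fold change of UGT2B15 was −0.45 ± 0.09 (SE, edgeR), and it was −0.35 without shRB 2, which had the lowest level.

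UGT2B11, an enzyme whose part in androgen conjugation is less well described, differed in the other direction and at a low level. It had 21.4, 15.8 and 19.7 CPM in shRB 1 to 3, from 235, 149 and 204 reads, against 5.35, 4.52 and 6.86 CPM in shCON 1 to 3, from 109, 45 and 42 reads. The lowest shRB library, at 15.8 CPM, lay above the highest shCON library, at 6.86 CPM. The mean was 19 ± 2.87 CPM in shRB and 5.58 ± 1.19 CPM in shCON (SD, n = 3 each), a ratio of 3.4. The log2 fold change of UGT2B11 was 1.81 ± 0.17 (SE, edgeR), and 0.333% of all tested transcripts had a higher one.

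**Figure D2:**
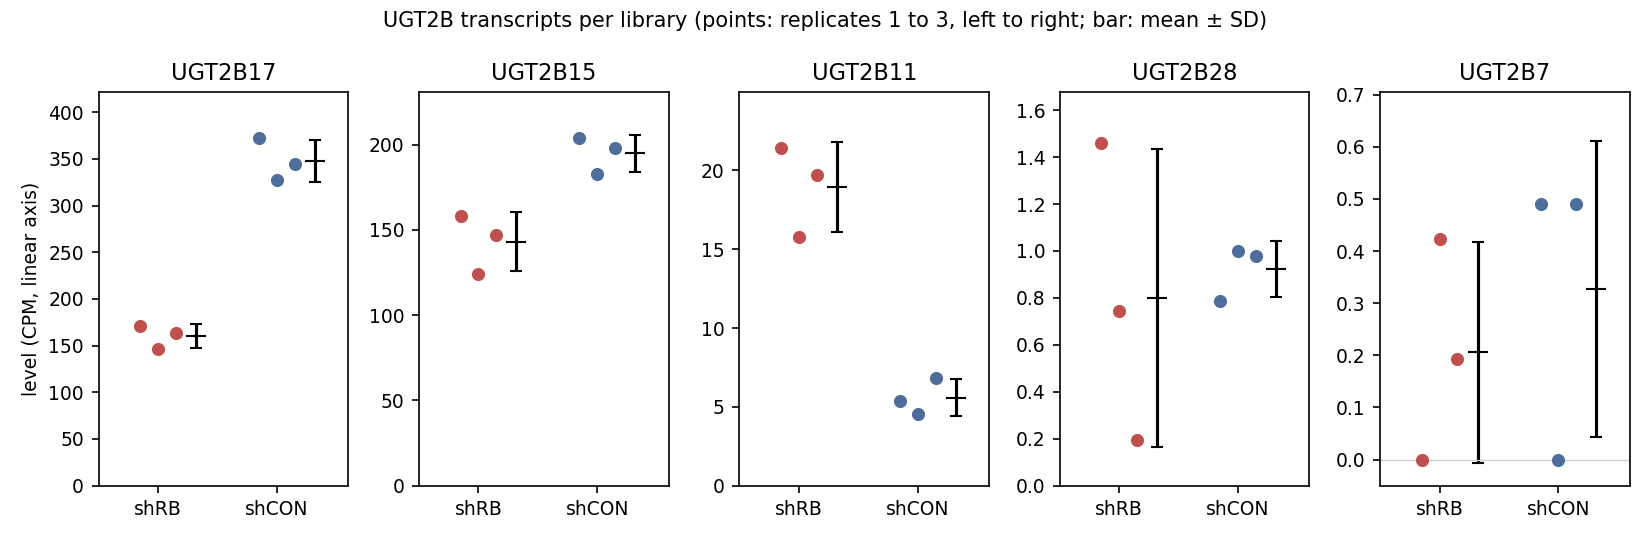
Level of each UGT2B member in CPM (y axes, linear, 1 scale per gene), with 1 point per library in replicate order, shRB left of shCON, and the mean ± SD (n = 3) beside the points. The groups are apart for UGT2B17, UGT2B15 and UGT2B11 and overlap for UGT2B28 and UGT2B7.

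UGT2B28, a member known to conjugate steroids, was near the detection limit. It had 16, 7 and 2 reads in shRB 1 to 3, against 16, 10 and 6 reads in shCON 1 to 3. The groups overlapped, and the ratio of shRB to shCON over pooled counts (25 and 32 reads) was 0.926, with an exact 95% interval of 0.526 to 1.61. UGT2B7, which conjugates steroids and many drugs in the liver, had 0, 4 and 2 reads in shRB 1 to 3, against 10, 0 and 3 reads in shCON 1 to 3. Its pooled ratio was 0.547, with an interval of 0.17 to 1.54. Neither member passed the filter on low counts, and a difference was not detectable for either at this depth. These intervals and the next cover counting error only. UGT2B4, a liver enzyme of the same family that is not a member, had 8 reads over the shRB libraries and 28 over the shCON libraries, a ratio of 0.339 with an interval of 0.133 to 0.762.

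The contrast of shRB with shCON was in view when these genes were chosen, so their calls are a description. Of the 5 members with a row, 3 passed the filter, of which 1 was called higher in shRB and 2 lower at a Benjamini-Hochberg adjusted p under 0.05 (edgeR). Over all 11712 transcripts tested, 12.8% were called higher and 12.5% lower. With a change of at least 2-fold as well, UGT2B11 was called higher and UGT2B17 lower, beside 1.34% of all tested transcripts higher and 2.43% lower. The groups did not overlap in 21% of all tested transcripts with shRB above and in 20.2% with shRB below. The median log2 fold change over all tested transcripts was −0.0062.

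The 3 tested members are poor in G and C, with 38.6% for UGT2B17, 39% for UGT2B15 and 37.9% for UGT2B11 against a median of 49.7%. For shRB 2, departures from the mean of its group followed GC content with a Spearman rho of 0.69 across 11674 transcripts, which are not independent replicates and share 1 library. It was −0.5 in shRB 1 and −0.54 in shRB 3. Departures within the group cancel for each transcript, so the values of shRB 1 and shRB 3 are tied to that of shRB 2. The library shRB 2 was the lowest of its group for UGT2B17, UGT2B15 and UGT2B11 alike. Without it the log2 fold changes were −1.05, −0.35 and 1.93 in that order.

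Levels between genes were compared per kilobase of transcript. UGT2B17 stood at 77.1 ± 6.1 and UGT2B15 at 68.9 ± 8.3 CPM per kilobase in shRB, a gap smaller than the SD of UGT2B15, although UGT2B17 was the higher in all 3 shRB libraries. In shCON they stood apart, at 168 ± 11 and 93.9 ± 5.2 CPM per kilobase. UGT2B11 followed at 9.09 ± 1.4 CPM per kilobase in shRB and 2.67 ± 0.57 in shCON. UGT2B28, at 0.435 ± 0.35 in shRB and 0.504 ± 0.066 in shCON, and UGT2B7, at 0.109 ± 0.11 in shRB and 0.173 ± 0.15 in shCON, came last (SD, n = 3 for all), with a gap between them in shRB that lay within the SD of UGT2B28. The order of the 5 means was the same in both groups. The UGT2B17 level exceeded that of 89.6% of tested transcripts in shRB and 95.9% in shCON, and the UGT2B11 level that of 47% in shRB and 20.1% in shCON.

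The composition of the family differed between the groups in a way that does not depend on library scaling. Reads of UGT2B17 were 1.08, 1.18 and 1.11 times those of UGT2B15 in shRB 1 to 3, against 1.82, 1.78 and 1.75 times in shCON 1 to 3. The mean ratio was 1.12 ± 0.0482 in shRB and 1.78 ± 0.036 in shCON (SD, n = 3 each), and the groups did not overlap. These ratios and the shares below come from the counts on which the members were chosen. They restate that difference and are no separate support. UGT2B17 made up 49.6 ± 1.14% of all UGT2B reads in shRB and 63.3 ± 0.583% in shCON. UGT2B15 made up 44.2 ± 0.871% in shRB and 35.5 ± 0.396% in shCON, a larger share of a smaller sum. UGT2B11 made up 5.85 ± 0.307% in shRB and 1.01 ± 0.202% in shCON. Whether assignment of shared reads between the near copies contributed to these shares was not tested.

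Sums do not depend on how reads were divided among the summed members, provided that each read was counted once. The counting options are not known. Reads dropped, counted in several rows, or given to UGT2B10 or to pseudogenes would change the sums. The 5 members together had 352.2, 287.4 and 329.9 CPM in shRB 1 to 3, against 583.3, 515.6 and 551.2 CPM in shCON 1 to 3. The groups did not overlap, and the log2 fold change of the sum was −0.77 ± 0.09 (SE, edgeR). For UGT2B15 and UGT2B17 alone it was −0.84 ± 0.08. The mean level of UGT2B17 fell by 188 CPM and that of UGT2B15 by 52 CPM, while that of UGT2B11 rose by 13.4 CPM.

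**Figure D3:**
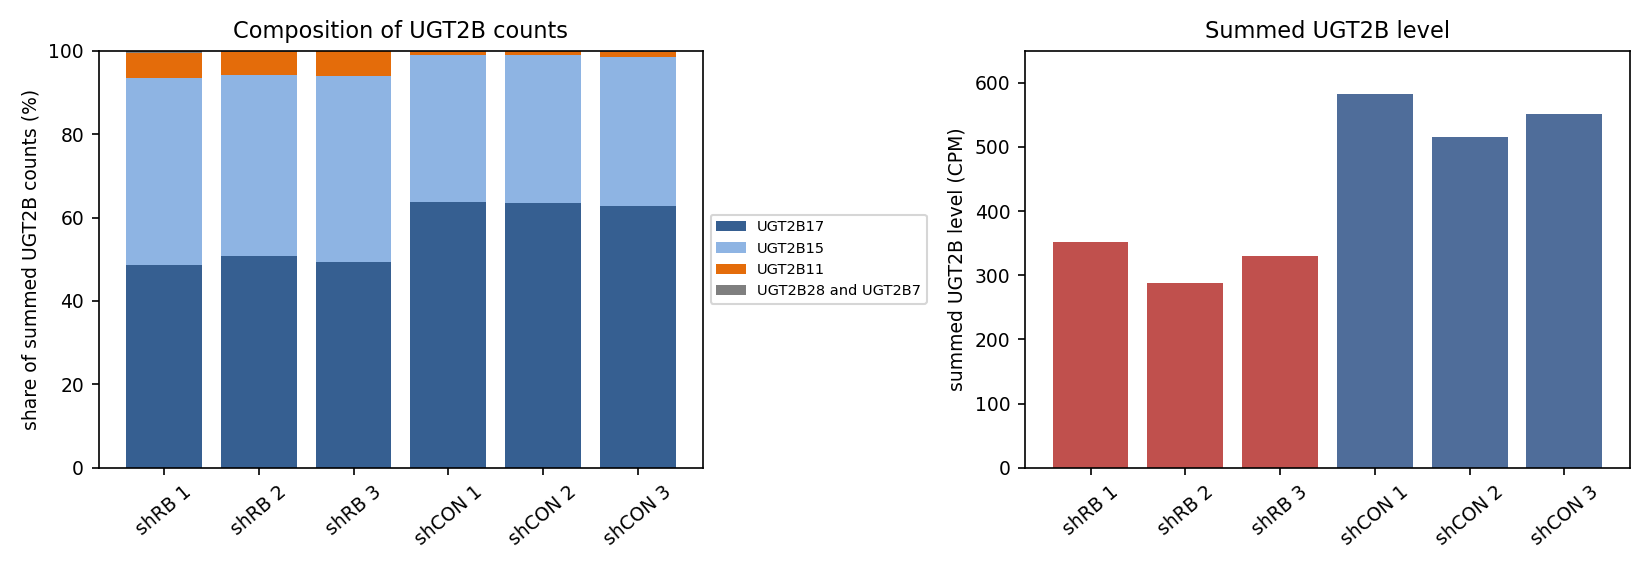
Left, share of the summed UGT2B reads held by each member in each library (y axis, %). Right, the summed UGT2B level per library (y axis, CPM, from 0). The shRB libraries have the lower sum and the smaller UGT2B17 share, 48.6% to 50.9% against 62.7% to 63.8% in shCON.

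The members lie in 1 cluster on chromosome 4, in the order UGT2B17, UGT2B15, UGT2B10, UGT2B7, UGT2B11 and UGT2B28, with UGT2A3 and many pseudogenes between them. The 3 nearest tested transcripts on each side lay outside the family. On the UGT2B17 side, their log2 fold changes were −0.06 ± 0.11 for the RNA-binding protein gene YTHDC1, −0.14 ± 0.12 for UBA6-AS1 and −0.48 ± 0.29 for the centromere protein gene CENPC. On the UGT2B28 side they were −0.52 ± 0.31 for ODAM, −0.06 ± 0.08 for UTP3 and −0.12 ± 0.15 for RUFY3 (SE). None of these 6 passed (edgeR adjusted p from 0.26 to 0.73), where 25.3% of all tested transcripts did in either direction. Over the 420 tested transcripts of chromosome 4, the median was −0.06, with 37 called higher and 65 lower. Over all 11712 tested transcripts, 1499 (12.8%) were called higher and 1459 (12.5%) lower.

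Start regions could be compared for 4 members, UGT2B15, UGT2B11, UGT2B10 and UGT2B7, from RefSeq (GRCh38.p14). The windows ran from 250 bases before to 50 after the start. The UGT2B15 and UGT2B11 windows are the ones shown, as 250 bases before the start, because these members moved in opposite directions. Capitals mark motif matches.
UGT2B15 (chr4:68670653-68670902, minus strand): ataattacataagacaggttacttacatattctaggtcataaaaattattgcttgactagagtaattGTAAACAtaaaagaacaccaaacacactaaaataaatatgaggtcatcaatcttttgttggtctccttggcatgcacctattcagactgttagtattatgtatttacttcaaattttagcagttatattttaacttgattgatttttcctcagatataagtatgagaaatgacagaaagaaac
UGT2B11 (chr4:69214749-69214998, minus strand): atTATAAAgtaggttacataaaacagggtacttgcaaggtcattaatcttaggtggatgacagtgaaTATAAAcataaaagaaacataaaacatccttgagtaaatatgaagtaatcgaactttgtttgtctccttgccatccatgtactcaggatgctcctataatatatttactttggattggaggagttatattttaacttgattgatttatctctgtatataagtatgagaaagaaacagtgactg

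The motifs searched on both strands were the FOXA core TGTTTAC, the HNF1 hexamer GTTAAT, the E2F cores TTTCGCGC and TTTCCCGC and the TATA box TATAAA. Inverted pairs of the HNF1 hexamer, spaced by 1 base, were searched too. UGT2B15 held 1 FOXA core, with its first base at −183 from the start, and none of the others. The FOXA core occurred in 3.42% of all 35116 windows of this length. A TATA box occurred in 11.5% and the HNF1 hexamer in 6.88% of them. UGT2B11 held 2 matches to TATAAA, with first bases at −248 and −183, all in the part far from the start. UGT2B10 held 3, at −244, −230 and −179, and neither held another of these motifs. Whether any of these matches serves as a TATA box was not tested. UGT2B7 held none of them, and no inverted pair or E2F core was found in any of the 4 windows. An E2F core occurred in 2.11% of all windows. The matches are descriptions of letters in a window and say nothing about binding. The windows are poor in G and C, with 30.3% for UGT2B15, 33% for UGT2B11 and 31% for UGT2B10 against a median of 58.7% over all windows. UGT2B11 and UGT2B10 had 90.1% identity in this window, against 69.8% for UGT2B11 and UGT2B15.

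Genes whose pattern over the 6 libraries was most like that of UGT2B17 were found by the root mean square difference of mean-centred log2 CPM. They were PTPRM, a receptor tyrosine phosphatase (0.048), OPTN, an autophagy receptor (0.052), DHRS7, a short-chain dehydrogenase (0.059), LRRN1 (0.066) and FAM198B (0.068). Their log2 fold changes ran from −1.15 to −1.05. The nearest to UGT2B11 were ABCA1, a cholesterol exporter (0.156), PLPPR1 (0.165), the protocadherin PCDHB8 (0.166), the repressor HES1 (0.197) and CCDC85A (0.207). Their log2 fold changes ran from 1.48 to 1.77. Within the family, UGT2B15 was the 472nd nearest of 9985 genes to UGT2B17, at 0.336, while UGT2B11 was among the farthest, at 1.442 and rank 9967. The profiles include the difference between shRB and shCON on which the members were chosen. These distances and ranks largely restate that difference and are no separate support.

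Of 80 genes on 6 lists around glucuronidation and androgen metabolism, 40 were tested, of which 15 were called higher in shRB and 6 lower (edgeR, adjusted p under 0.05). With the UGT1A transcripts counted once, 13 of 32 tested were called, 7 higher and 6 lower. That is 40.6%, beside 25.3% of all tested transcripts in either direction. The lists were drawn up with earlier results of these data known, so the higher share is a description. Several of these calls, among them those of GUSB, UGP2, STS, HSD17B10 and UGT1A1, were lost under other settings. The median log2 fold change of the 32 was −0.06.

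Among other UGT genes, all 10 tested were called higher, but 9 of them are UGT1A transcripts. These share most of their exons, 4 of the 9 had identical counts in every library, and no library had more than 24 reads for any of them. UGT1A10 had the smallest p of the locus, with 2 ± 0.391 CPM in shRB and 0.793 ± 0.269 CPM in shCON (SD, n = 3 each). UGT1A1 and UGT1A8 had log2 fold changes of 1.14 ± 0.32 and 1.13 ± 0.32 (SE, edgeR adjusted p = 0.019 and 0.021). Both lost their call without shRB 3 (edgeR adjusted p = 0.059 and 0.086), without shCON 1 (0.081 and 0.067) and without shCON 3 (0.056 and 0.06). Under DESeq2, UGT1A10, UGT1A1 and UGT1A8 were not called (DESeq2 adjusted p = 0.07, 0.11 and 0.1), and the number of genes called higher over the 6 lists was 6 in place of 15. The tenth, UGT8, which makes galactosylceramide and conjugates no androgen in its textbook role, had 11.6, 11.2 and 12.3 CPM in shRB against 4.27, 5.22 and 3.76 CPM in shCON. UGT8 rose by 1.39 ± 0.15 on the log2 scale (edgeR adjusted p = 2.5e-05).

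Of 7 tested genes that supply UDP-glucuronic acid or remove glucuronides, 1 rose and 2 fell, with 4 not past the threshold and a median log2 fold change of −0.09. The enzyme that makes the sugar donor, UDP-glucose dehydrogenase UGDH, named after its values were seen, was at 89.7 ± 3.58 CPM in shRB and 87.8 ± 5.15 CPM in shCON. Phosphoglucomutase PGM1 rose to 112 ± 11.1 CPM in shRB, against 89.5 ± 5.31 CPM in shCON. UGP2, which makes UDP-glucose, fell to 71.2 ± 4.61 CPM in shRB, against 85.4 ± 7.63 CPM in shCON. GUSB, the lysosomal glucuronidase, fell to 81.4 ± 7.37 CPM in shRB, against 97.6 ± 3.74 CPM in shCON (SD, n = 3 for all). SLC35D2, a nucleotide sugar transporter, was at −0.28 ± 0.10 on the log2 scale and did not pass. The edgeR adjusted p was 0.014 for PGM1, 0.036 for GUSB and 0.044 for UGP2. PGM1 lost its call without shCON 1 (edgeR adjusted p = 0.085). GUSB lost it without shRB 1, shRB 3 or any shCON library (edgeR adjusted p from 0.066 to 0.14), and UGP2 without shRB 1, shRB 3, shCON 1 or shCON 3 (from 0.058 to 0.23).

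Of 7 tested oxidoreductases acting on androgens, 1 rose and 1 fell, with 5 not past the threshold and a median of −0.08. The list had 22 rows, and those not tested had too few reads to pass the filter on low counts. These counts and the median say nothing about the genes not tested. HSD17B11, which can oxidise androstanediol, had 6.56, 5.84 and 5.89 CPM in shRB 1 to 3, against 13, 13.4 and 12.4 CPM in shCON 1 to 3. All shRB libraries lay below all shCON libraries, and HSD17B11 fell by 1.09 ± 0.13 on the log2 scale (edgeR adjusted p = 6.5e-05). The mitochondrial dehydrogenase HSD17B10 rose to 199 ± 15.2 CPM in shRB, against 169 ± 5.99 CPM in shCON (edgeR adjusted p = 0.037), and lost its call without shRB 1 or any shCON library (from 0.072 to 0.17). SRD5A3, a steroid reductase family member that serves protein glycosylation, was at 0.19 ± 0.08 and HSD17B8 at −0.15 ± 0.10 on the log2 scale (SE), and neither passed.

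Among 3 tested sulphation genes, steroid sulphatase STS fell to 13.8 ± 1.99 CPM in shRB, against 18.2 ± 0.689 CPM in shCON (edgeR adjusted p = 0.038). STS lost its call without any one library other than shRB 3 (edgeR adjusted p from 0.058 to 0.11). The sulphotransferase SULT2B1 was at 0.25 ± 0.11 and the donor-making PAPSS1 at 0 ± 0.08 on the log2 scale. None of the 4 tested exporters ABCC1, ABCC4, ABCC5 and ABCG2 passed, with log2 fold changes from −0.29 to 0.06 (edgeR adjusted p from 0.32 to 0.88, and 0 of them with an unadjusted p under 0.05).

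Of 9 tested regulators described for UGT2B genes, 3 rose and 2 fell, with 4 not past the threshold and a median of −0.06. AHR, the aryl hydrocarbon receptor, fell to 3.71 ± 0.64 CPM in shRB, against 10.2 ± 1.13 CPM in shCON (adjusted p = 6e-05, edgeR). CEBPA rose to 98.4 ± 10.6 CPM in shRB, against 70.5 ± 3.3 CPM in shCON, and JUN to 133 ± 5.92 CPM in shRB, against 104 ± 6.58 CPM in shCON (SD, n = 3; edgeR adjusted p = 0.0017 and 0.0049). The third to rise was the nuclear receptor gene NR1I3, at 0.60 ± 0.14 on the log2 scale, named after its values were seen. FOXA1, a pioneer factor of the prostate, was at 575 ± 16.4 CPM in shRB and 598 ± 10.1 CPM in shCON and did not pass, likewise named after its values were seen.

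**Figure D4:**
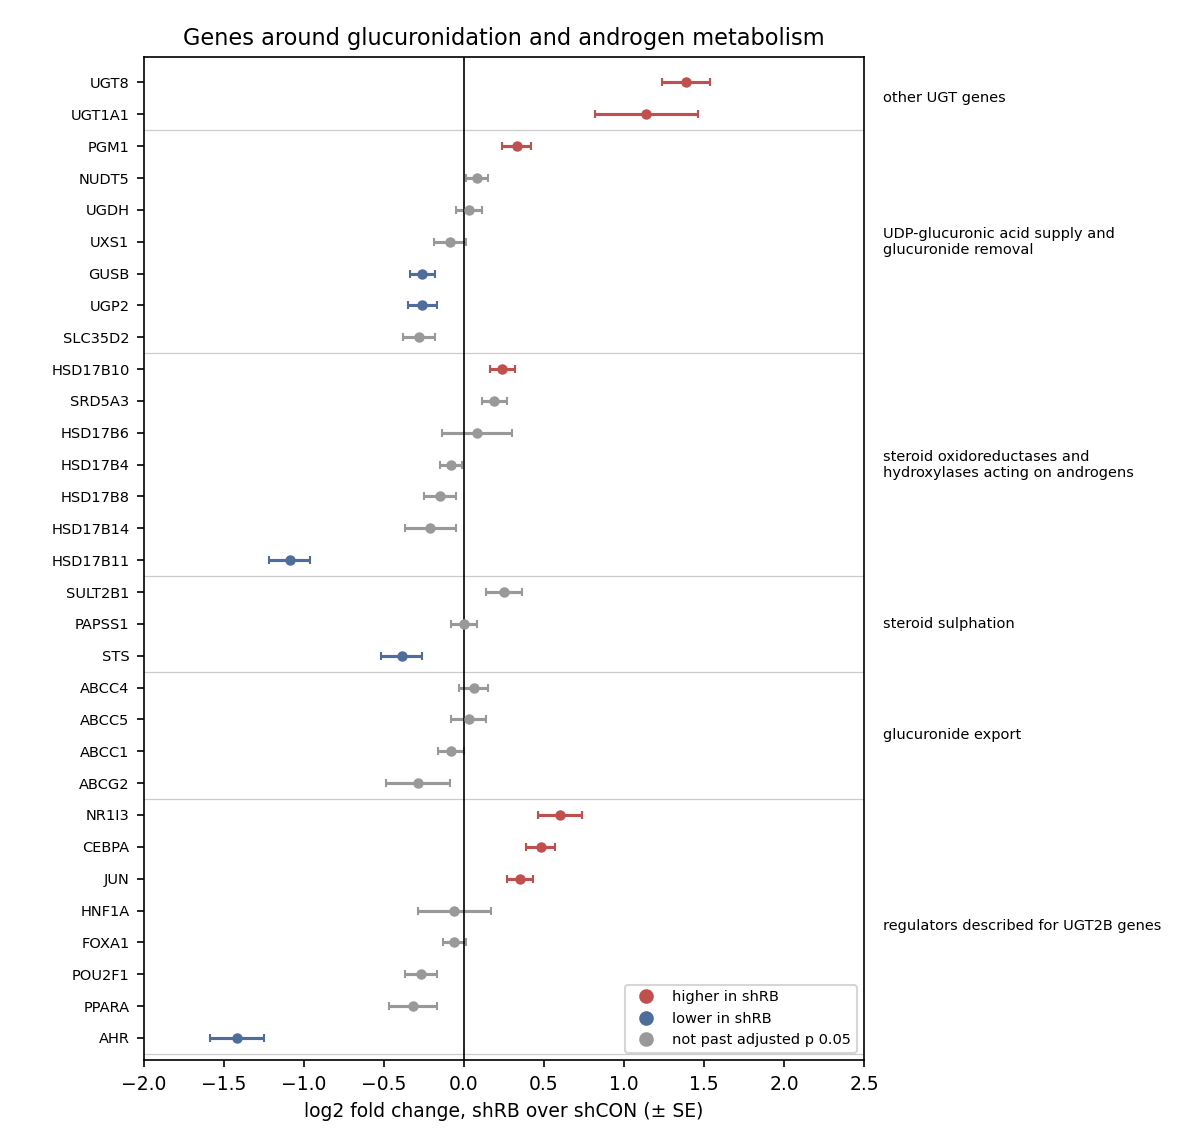
Log2 fold change of shRB over shCON with its SE (x axis) for tested genes of the 6 lists, with UGT1A1 standing for the UGT1A locus. Colour marks genes called higher or lower in shRB at an edgeR adjusted p under 0.05. The points are spread on both sides of 0, with UGT8 highest at 1.39 and AHR lowest at −1.42.

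Fold changes of the 3 tested members were recomputed under other tools, scalings and filters and with each library left out. Over these 13 settings the log2 fold change ranged from −1.17 to −1.05 for UGT2B17, from −0.52 to −0.35 for UGT2B15 and from 1.7 to 1.93 for UGT2B11. The lowest and highest values of each came from leaving out 1 library. All settings reused libraries on which the members were chosen, so these ranges are no separate support for the differences.

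**Figure D5:**
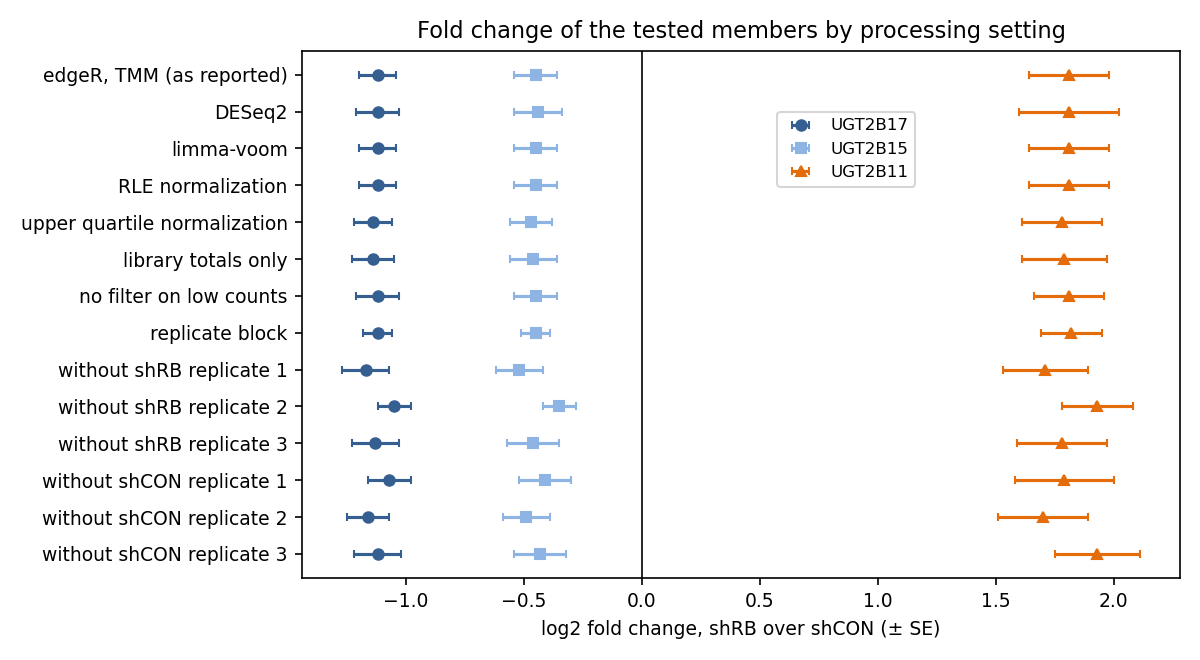
Log2 fold change of shRB over shCON with its SE (x axis) for UGT2B17, UGT2B15 and UGT2B11 under each setting (rows). UGT2B17 and UGT2B15 stay below 0 and UGT2B11 above 0 in all rows.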

How the data were processed

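The deposited values are counts of reads without normalization, whole numbers in a table of transcripts by libraries. STAR, HOMER, edgeR and the build hg19 appear in the processing notes of the submitters, with no role stated. The annotation and the counting options were not given in the sources used here. GENCODE release 29 lies on another build than hg19, so it served only for names, gene order, exon overlap, transcript length and sequence, and 97 unmatched IDs (0.377% of counts) stayed in the totals. Chi-square per degree of freedom between replicates of a group lay between 2.25 and 11.3, so no library was a duplicate of another.

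The comparison used edgeR 4.0.16 in R 4.3.3 with filterByExpr (minimum count 10, minimum total 15), TMM, the quasi-likelihood F test with group as the only term, and Benjamini-Hochberg adjustment over 11712 transcripts. An SE is the log2 fold change divided by the square root of F. Sums of members entered the same fit as extra features. Alternatives were DESeq2 1.42.0, limma-voom (limma 3.58.1), other normalizations, no filter, a replicate block, a stricter threshold and each library left out. Coding sequences were aligned with Biopython 1.88.

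Members and lists were chosen with earlier results of these data known. Named genes are the members, other UGT2B rows, up to 4 tested genes per list by smallest p, the 3 nearest tested transcripts on each side of the cluster, and the 5 genes (mean at least 5 CPM, prior count 2) nearest in pattern to UGT2B17 and UGT2B11. Some items of the lists are not reported here.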

Additional observations from a re-analysis of the deposited data

How the results depend on the processing

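The count of UGT2B members called, 1 higher and 2 lower, was unchanged under every alternative run. The log2 fold change of the sum ranged from −0.83 to −0.68 for all members and from −0.9 to −0.76 for UGT2B15 with UGT2B17. Every alternative reused libraries on which the members were chosen, so this stability is no separate support. Over all transcripts, an adjusted p under 0.01 left 787 higher and 793 lower. With the replicate block 2203 were higher and 2294 lower. Same-numbered libraries deviated from their group means with correlations of 0.235, 0.352 and −0.00032, and 3 of 6 libraries correlated best with their own number. These values do not settle whether the numbers are pairs, and the main fit was made without the block. With 1 library left out, 863 to 2074 transcripts were higher and 912 to 1956 lower, the fewest without shCON 1 and fewer by over 1.5 times also without shCON 3 (969 and 964). In the 6 lists, 15 genes were called higher and 6 lower. The higher count was 6 under DESeq2 and 4 at an adjusted p under 0.01, and the lower count 3 at that threshold. With 1 library left out, 5 to 14 were higher and 3 to 5 lower. The higher count was 5 without shCON 1, 8 without shCON 2, 6 without shCON 3, 9 without shRB 2 and 7 without shRB 3. The lower count was 3 without shCON 1, shCON 3 or shRB 1. UGT1A1 and UGT1A8 each lost their call in 4 of 13 settings, GUSB, UGP2 and STS in 6 each, HSD17B10 in 5, and PGM1 and UGT1A10 in 1 each. The causes were not tested. For UGT2B28 and UGT2B7 depth is the limit, with at most 16 reads in a library.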
